A study of Mus musculus with 12 samples.

Results

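The liver turns methionine into the universal methyl donor S-adenosylmethionine, recovers the homocysteine that is left and joins both steps to folate. Expression of 9 genes that encode central enzymes of this network was followed in the livers of 6 WT and 6 *Marchf6* LKO mice. The genes were listed by name (*Mat1a*, *Gnmt*, *Ahcy*, *Bhmt*, *Bhmt2*, *Cbs*, *Cth*, *Shmt1* and *Aldh1l1*) and are 9 of the 54232 genes in the count table. All 9 passed the filter on low counts and each had at least 2231 reads in every liver. Livers came from male C57Bl/6J littermates that were 10 weeks old, ate chow and had been fasted for 4 h. *Marchf6* LKO mice (labelled Marchft liver KO) carried *Marchf6* fl/fl and AlbuminCre+, a Cre that is driven by the albumin promoter and so acts in hepatocytes, with deletion of exon 2 by the labels. WT mice carried the same floxed alleles and were AlbuminCre-, which means that no mouse had 2 unmodified *Marchf6* alleles. The non-parenchymal cells of an LKO liver keep *Marchf6*, an E3 ubiquitin ligase of the endoplasmic reticulum, and are part of the bulk RNA.

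Methionine is activated by MAT1A, the methionine adenosyltransferase of mature hepatocytes, to S-adenosylmethionine. GNMT, an abundant liver methyltransferase, uses surplus S-adenosylmethionine to methylate glycine, and AHCY splits the product S-adenosylhomocysteine into adenosine and homocysteine. Homocysteine is either methylated back to methionine, with betaine as the donor by BHMT or with methylfolate by methionine synthase, or leaves the cycle through CBS and CTH, which pass its sulfur to cysteine. SHMT1 charges folate with a one-carbon unit from serine, and ALDH1L1 oxidises formylfolate to carbon dioxide with formation of NADPH.

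None of the 9 genes passed an adjusted p of 0.05 between the genotypes. The test was the quasi-likelihood test of edgeR, with p adjusted by Benjamini and Hochberg's method across the 17509 genes that could be tested, of which 75, or 0.428%, passed. The largest difference was in *Bhmt*, which was at 0.643 times the WT level in *Marchf6* LKO livers (log2 fold change -0.64 ± 0.15, SE, n = 6 per group, adjusted p = 0.0903). Its rank by p was 178 among all genes. *Aldh1l1* was at 0.822 times the WT level (log2 fold change -0.28 ± 0.10, SE, n = 6 per group, adjusted p = 0.273). The other 7 genes had adjusted p of 0.576 to 0.974. In sign, 7 of the 9 were lower and 2 higher in LKO livers, and their median log2 fold change was -0.15, where that of the 17509 genes was 0.00015. Before adjustment, 2 of the 9 had a p under 0.05, *Bhmt* and *Aldh1l1*, both lower, where 11.7% of all genes tested had such a p and 5.36% had it with lower counts in LKO livers. The 9 genes were chosen with earlier results of these data known, so this share is no test of them as a group. In none of the 9 did the ranges of the genotypes separate, as they did in 1.3% of genes tested.

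**Figure D1:**
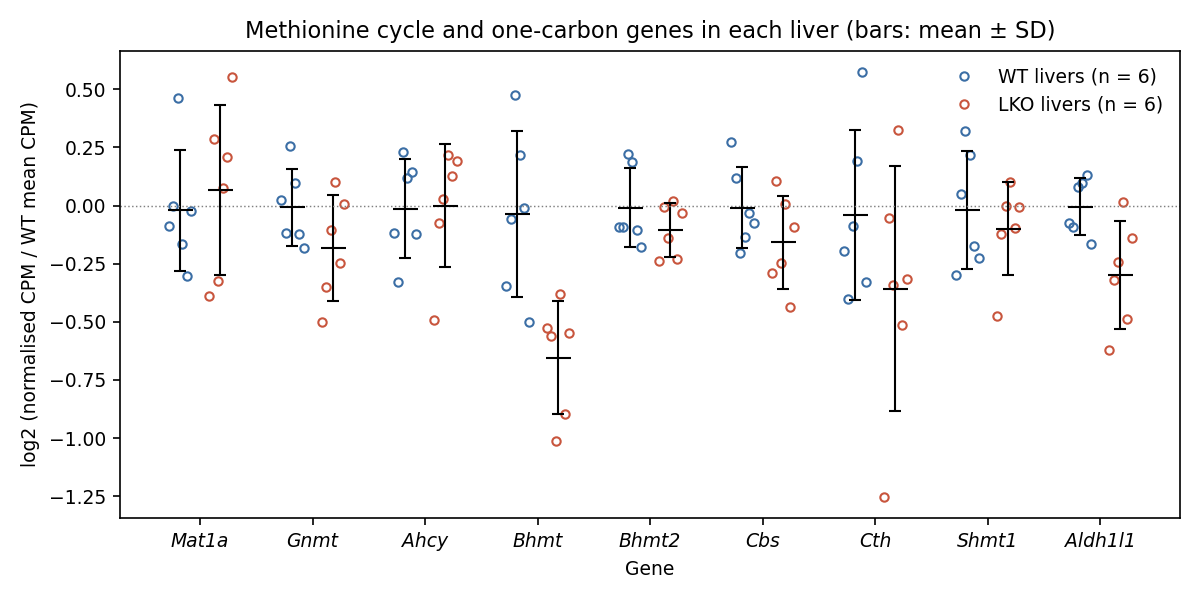
Level of each of the 9 genes in each liver, on the vertical axis as log2 of the normalised level (CPM, counts per 1000000 reads) over the mean of the 6 WT livers, with the mean and SD of each group of 6. The 6 LKO livers of *Bhmt* all lie below the WT mean, from 755 to 1171 CPM, and the groups overlap in every gene.

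Libraries held 14860414 to 19013181 counted reads in WT and 15242214 to 22111926 in LKO livers. Mitochondrial genes took 5.84% to 6.15% of the reads in WT and 6.19% to 6.73% in LKO livers, ranges that did not overlap, and the part of this in the values of the 9 genes was not tested. The sequencing labels number the WT libraries 59 to 64 and the LKO libraries 65 to 70, so that library order and genotype cannot be told apart. *Marchf6* had 241 ± 8.36 CPM in WT and 226 ± 16.5 CPM in LKO livers (SD, n = 6 each, log2 fold change -0.09, edgeR adjusted p = 0.585). Reads were counted over the whole gene, which leaves the deleted exon unseen and the genotype labels unchecked by this value. Livers did not vary evenly: LKO 1 was the lowest LKO liver in 7 of the 9 genes and LKO 4 the highest in 7, while WT 3 was the highest WT liver in 6 and WT 6 the lowest in 4. Without both WT 3 and LKO 1 none of the 9 genes passed, and *Bhmt* was at a log2 fold change of -0.54 (edgeR adjusted p = 0.127).

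The summed level of 6 hepatocyte markers was 92431 to 111700 CPM in WT and 82799 to 96311 CPM in LKO livers, with 5 of 6 lower in sign and none past the test. Of 7 periportal markers 6 were lower, and of 7 pericentral markers 4, again with none past the test. All 7 Kupffer cell markers were higher in sign, with sums of 94.5 to 132 CPM in WT and 121 to 205 CPM in LKO livers, as were all 6 stellate cell markers (148 to 228 CPM and 179 to 248 CPM), and no gene of either list passed. Endothelial markers were higher in 4 of 6 (147 to 194 CPM and 157 to 189 CPM), cholangiocyte markers in 3 of 5 (37.0 to 63.5 CPM and 34.0 to 129 CPM) and erythroid markers in 2 of 3 (167 to 198 CPM and 149 to 214 CPM). B cell markers had 4 of 5 higher in sign, and *Ighm*, named after its values were seen, fell from 18.5 ± 3.18 to 5.40 ± 0.725 CPM (SD, n = 6 each, edgeR adjusted p = 4.06e-06) as the only marker past the test, so that their sum was 14.9 to 23.5 CPM in WT and 5.89 to 7.86 CPM in LKO livers. No marker was at 0 in every liver. In bulk liver, fewer cells of a type and less RNA per cell cannot be told apart, and the part of cell makeup in the values given here was not tested.

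Synthesis and use of S-adenosylmethionine were represented by *Mat1a*, *Gnmt* and *Ahcy*, and in none of them did the genotypes separate. *Mat1a* (chr14:41105035-41124412, plus strand, GRCm38) had a lowest, median and highest level of 3012, 3576 and 5125 CPM in WT livers and of 2842, 4109 and 5464 CPM in LKO livers. Its highest level was in an LKO liver, and 4 of 6 LKO livers lay above the WT mean. The log2 fold change was 0.11 ± 0.16 (SE, n = 6 per group, edgeR adjusted p = 0.856), with a 95% confidence interval of -0.24 to 0.45. The same difference came to -0.0024 without LKO 6, 0.053 without WT 5 and 0.18 to 0.22 without WT 3, LKO 1 or LKO 3.

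*Gnmt* (chr17:46725664-46729168, minus strand) had 1209, 1331 and 1639 CPM as lowest, median and highest WT level and 969.8, 1217 and 1474 CPM in LKO livers. Of the LKO livers, 3 lay below every WT liver and 3 inside the WT range. The log2 fold change was -0.17 ± 0.11 (SE, n = 6 per group, edgeR adjusted p = 0.576), and it was -0.11 without WT 3 or without LKO 1. *Ahcy* (chr2:155059310-155074497, minus strand) had 436, 551 and 643 CPM in WT and 389, 579.8 and 638 CPM in LKO livers. Of its 6 LKO livers, 5 lay inside the WT range and LKO 1 below it, and the log2 fold change was 0.02 ± 0.12 (SE, n = 6 per group, edgeR adjusted p = 0.974). With each liver left out it ranged from -0.040, without WT 2, to 0.10, without LKO 1.

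*Ahcy* shares exact sequence with copies elsewhere in the genome. Of the 50-base windows along its exons, 66% also occur in *Gm4737*, 30.2% in *Gm9826* and 3.97% in *Gm5638*, and over all livers these had 9651, 2574 and 175 reads beside the 115721 of *Ahcy*. The level of *Ahcy* is uncertain, since a read from a shared stretch cannot be placed, and how such reads were counted is not stated. With the reads of the 3 copies added to *Ahcy*, its log2 fold change was 0.01.

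Methylation of homocysteine was represented by *Bhmt*, whose product takes the methyl group from betaine, and by its relative *Bhmt2*, whose product takes it from S-methylmethionine. Both genes lie on the minus strand of chromosome 13, *Bhmt* at chr13:93616675-93637961 and *Bhmt2* at chr13:93655720-93674302 (GRCm38), and their coding sequences of 1221 and 1089 bases were identical at 75.4% of 1088 aligned bases. *Bhmt2* starts head to head with *Dmgdh* (chr13:93674433-93752833, plus strand), which encodes dimethylglycine dehydrogenase, the enzyme that takes up the dimethylglycine made by BHMT. The start regions of this cluster are shown because the 3 genes are neighbours and *Bhmt* had the largest difference of the 9. For *Bhmt*, the outer end of the RefSeq promoter window (chr13:93637962-93638008, minus strand, GRCm38.p6) is given with the nuclear receptor half-site AGGTCA in capitals. For *Bhmt2*, the 130 bases that separate it from *Dmgdh* (chr13:93674303-93674432, minus strand) are given with the GC box GGGCGG in capitals.
Bhmt: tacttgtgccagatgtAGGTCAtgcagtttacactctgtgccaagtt
Bhmt2: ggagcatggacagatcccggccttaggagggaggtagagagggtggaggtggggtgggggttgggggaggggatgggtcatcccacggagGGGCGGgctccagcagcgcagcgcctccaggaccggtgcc
The whole windows of 250 bases before to 50 bases after the RefSeq start had a GC content of 48% in *Bhmt* and 73.7% in *Bhmt2*, against a median of 52.7% over all 32851 windows. AGGTCA was found 3 times in the *Bhmt* window on the strand of the gene, and on either strand in 16.3% of all windows. GGGCGG was found 2 times in the *Bhmt2* window and not in that of *Bhmt*, and on either strand in 35.7% of all windows. Among the 7 of the 9 genes with a window, AGGTCA also occurred in *Ahcy*, *Aldh1l1* and *Gnmt*, and GGGCGG in *Ahcy*, *Aldh1l1*, *Cbs* and *Shmt1*. The E-box CACGTG occurred in *Cbs* (7.15% of all windows) and TCACNCCAC, a sterol response element, in *Gnmt* (1.24% of all windows). TGACNNNGC, an antioxidant response element (12.4% of all windows), and TGATGNAAT, a C/EBP-ATF element (0.965%), matched in none of the 7. Both strands were searched, and in these windows no match of 1 motif overlapped a match of another. These matches describe the letters of the windows, and binding was not measured.

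*Bhmt* had 1078, 1487 and 2121 CPM as lowest, median and highest WT level and 755, 1039 and 1171 CPM in LKO livers. All 6 LKO livers were below the WT mean and 5 of 6 below every WT liver. LKO 4, at 1171 CPM, was inside the WT range, and WT 6, at 1078 CPM, was inside the LKO range. The log2 fold change of -0.64 had a 95% confidence interval of -0.97 to -0.31, and an exact two-sided permutation test of log2 CPM over all 924 assignments of 6 livers gave p = 0.00433 for this gene alone, without adjustment. DESeq2, which called 2.17% of the genes it tested, placed *Bhmt* among its calls with a log2 fold change of -0.64 (DESeq2 adjusted p = 0.00844). The edgeR fold change kept its sign without each liver in turn, between -0.72 and -0.52, and its adjusted p lay between 0.0529, without WT 6, and 0.203, without WT 4.

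*Bhmt* reads are shared with near-identical copies as well. *Gm5096* and *Bhmt-ps1* hold 24.1% and 13.5% of the 50-base windows of *Bhmt*, and had 14149 and 2519 reads over all livers beside 257838 of *Bhmt*. The values of these copies were much like those of *Bhmt*, with a log2 fold change of -0.65 for *Gm5096* (edgeR adjusted p = 0.0677) and of -0.59 for *Bhmt-ps1* (edgeR adjusted p = 0.0954). With their reads added to *Bhmt*, the log2 fold change was again -0.64 (edgeR adjusted p = 0.0896). Copies with so few reads and a like fold change could move it little. How reads from shared stretches were counted is not stated, so the sum may leave some of them out. *Gm15622*, a transcript from the opposite strand that overlaps exons of *Bhmt* by 187 bases, had 2711 reads, and since no strand setting of the counting is stated, its reads and those of *Bhmt* cannot be told apart.

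*Bhmt2* had 222, 235 and 293 CPM as lowest, median and highest WT level and 213, 237 and 254 CPM in LKO livers. The medians nearly coincided and 4 of 6 LKO livers lay inside the WT range. The log2 fold change was -0.10 ± 0.08 (SE, n = 6 per group, edgeR adjusted p = 0.684), with a 95% confidence interval of -0.28 to 0.08, and it was -0.053 without WT 3 and -0.060 without WT 4. *Dmgdh*, on the far side of the shared start region, had 513, 644 and 753.5 CPM in WT and 466, 488 and 548 CPM in LKO livers, with 5 of 6 LKO livers below every WT liver. Its log2 fold change was -0.37 ± 0.09 (SE, n = 6 per group, edgeR adjusted p = 0.0954). *Dmgdh* passed in 1 of 12 edgeR fits with a liver left out, without WT 6 (adjusted p = 0.0432), and the highest adjusted p was 0.217, without WT 5. Of 9 other alternatives 1 called it, DESeq2 (adjusted p = 0.0116).

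**Figure D2:**
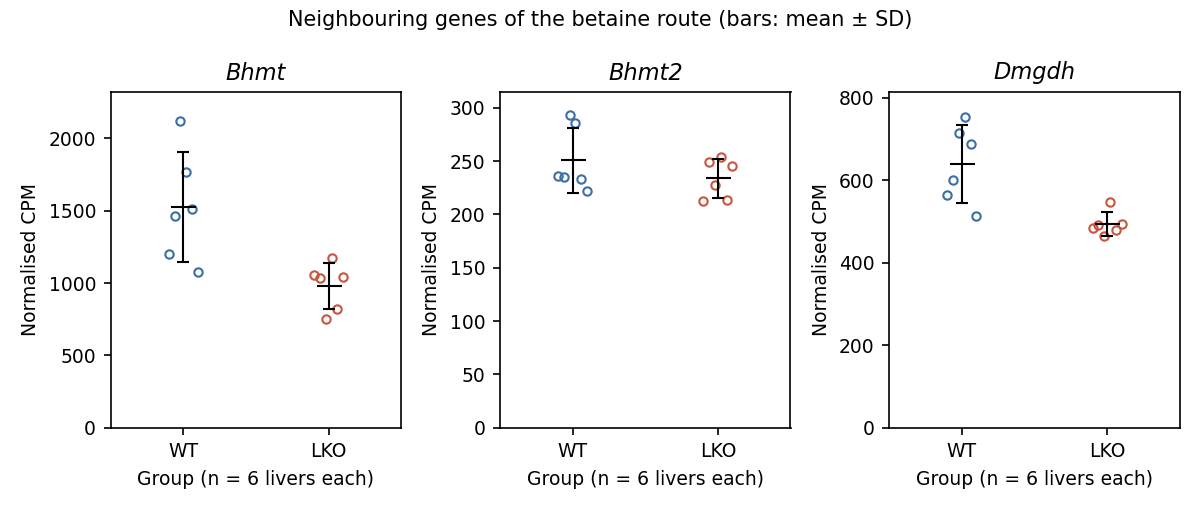
Normalised CPM (vertical axis, from 0) of *Bhmt*, *Bhmt2* and *Dmgdh* in each of the 6 WT and 6 LKO livers, with mean and SD. In *Bhmt* and *Dmgdh*, 5 of 6 LKO livers lie below every WT liver, while in *Bhmt2* 4 of 6 lie inside the WT range.

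Because both genes are counted in the same library, the ratio of *Bhmt2* to *Bhmt* reads does not depend on the scaling between libraries. The log2 ratio was -2.57 ± 0.22 in WT and -2.05 ± 0.20 in LKO livers (SD, n = 6 each). It ran from -2.86 in WT 3 to -2.28 in WT 6, and from -2.31 in LKO 1 to -1.73 in LKO 3. All 6 LKO livers were above the WT mean and 5 of 6 above the highest WT liver. An exact two-sided permutation test over 924 assignments gave p = 0.00433 for the difference of 0.52 (adjusted over 3 ratios 0.0130, smallest possible p 0.00216). The ratio is not independent of *Bhmt*, which alone gave the same exact permutation p, while *Bhmt2* had a log2 fold change of -0.10. The genes were chosen with earlier results of these data known, and the adjustment covers only the 3 ratios. Over all genes tested *Bhmt* did not pass (edgeR adjusted p = 0.0903). Per kilobase of exon, *Bhmt2* stood at 0.392 times the level of *Bhmt* in WT and at 0.562 times in LKO livers, or at 0.169 and 0.243 times by the length of the transcript with the longest coding part.

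The ratio of *Gnmt* to *Mat1a* reads, a consumer of S-adenosylmethionine over the enzyme that makes it, had a log2 value of -1.42 ± 0.20 in WT and -1.69 ± 0.35 in LKO livers (SD, n = 6 each). The LKO livers spread wider than the WT livers, from -2.07 in LKO 2 to -1.22 in LKO 3. For the difference of -0.26 the exact permutation test gave p = 0.134 (adjusted over 3 ratios 0.201). The ratio of *Cth* to *Cbs*, the later over the earlier step of transsulfuration, was -0.44 ± 0.45 in WT and -0.60 ± 0.42 in LKO livers (SD, n = 6 each, exact permutation p = 0.528, adjusted over 3 ratios 0.528). It ranged from -0.92 to 0.20 in WT and from -1.37 to -0.08 in LKO livers, and with each liver left out the difference of -0.17 ran from -0.27, without LKO 4, to -0.015, without LKO 1.

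**Figure D3:**
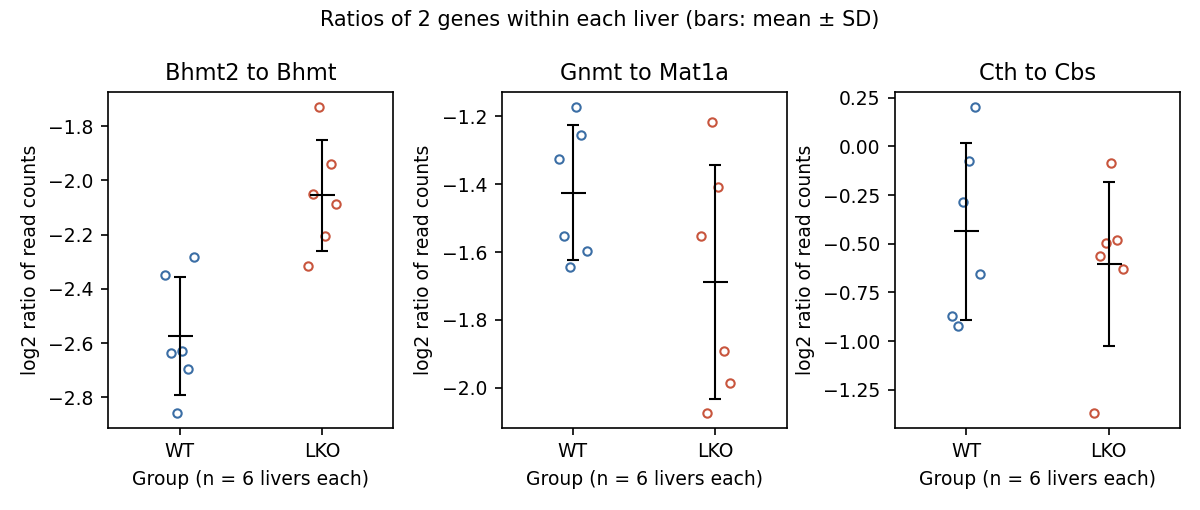
Log2 ratio of the read counts of *Bhmt2* to *Bhmt*, *Gnmt* to *Mat1a* and *Cth* to *Cbs* in each of the 6 WT and 6 LKO livers, with mean and SD. The *Bhmt2* to *Bhmt* ratio was 0.52 higher in LKO livers, and the other ratios overlap widely.

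Transsulfuration genes were lower in sign but did not pass the test. *Cbs* (chr17:31608894-31637238, minus strand), the entry step, had 449.7, 499 and 625 CPM as lowest, median and highest WT level and 383, 461 and 556 CPM in LKO livers. LKO 5, LKO 1 and LKO 3 lay below every WT liver, and the log2 fold change was -0.15 ± 0.10 (SE, n = 6 per group, edgeR adjusted p = 0.616). It was -0.084 without WT 1 and -0.095 without LKO 5. *Cth* (chr3:157894248-157925077, minus strand), which releases cysteine, had 296, 355 and 583 CPM in WT and 164, 312 and 491 CPM in LKO livers. It varied most of the 9 genes, with a coefficient of variation of 27.6% in WT and 33.7% in LKO livers, and its log2 fold change of -0.28 ± 0.22 had a 95% confidence interval of -0.75 to 0.18 (n = 6 per group, edgeR adjusted p = 0.662). Without WT 5 it was -0.13, without LKO 1 it was -0.15 and without LKO 4 it was -0.44.

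Of the folate genes, *Shmt1* (chr11:60788104-60811718, minus strand) had 154, 182 and 236 CPM as lowest, median and highest WT level and 136, 183 and 203 CPM in LKO livers. Its medians nearly coincided, 5 of 6 LKO livers were inside the WT range and the log2 fold change was -0.09 ± 0.12 (SE, n = 6 per group, edgeR adjusted p = 0.825). It was -0.016 without WT 3, -0.022 without LKO 1, -0.041 without WT 4 and -0.14 without WT 1, and the sign turned, at 0.048, without both WT 3 and LKO 1. Exons of *Shmt1* overlap those of *Smcr8*, on the opposite strand, by 184 bases.

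*Aldh1l1* (chr6:90486427-90600203, plus strand) had 1314, 1476 and 1610 CPM as lowest, median and highest WT level and 957, 1212 and 1488 CPM in LKO livers. LKO 1, LKO 5, LKO 2 and LKO 3 lay below every WT liver, and LKO 6 and LKO 4 inside the WT range. The log2 fold change of -0.28 had a 95% confidence interval of -0.50 to -0.07, and the exact permutation test gave an unadjusted p of 0.0216 for this gene alone, which the adjustment over all genes in edgeR took to 0.273. *Aldh1l1* had the narrowest spread of the 9 genes in WT livers, a coefficient of variation of 8.37%. Its exons overlap *Gm15756*, on the opposite strand, and *Gm45901*, which had 301 and 14 reads over all livers beside 277803 of *Aldh1l1*.

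Levels can be set side by side between genes only per length. Per kilobase of exon, *Gnmt* (1139 ± 135 CPM per kilobase, SD, n = 6) and *Mat1a* (1073 ± 212) led in WT livers, with ranges that overlapped each other and lay above those of the other 7 genes. *Aldh1l1* (326 ± 27.3), *Bhmt* (265 ± 66.1), *Ahcy* (195 ± 28.1), *Cth* (140 ± 38.6) and *Bhmt2* (102 ± 12.3) followed, where each overlapped the next. *Cbs* (69.1 ± 8.68) lay below the whole range of *Bhmt2* and overlapped *Shmt1* (48.7 ± 8.65), the lowest. In LKO livers, *Bhmt* (170 ± 27.5) stood below *Ahcy* (198 ± 32.9) and *Mat1a* (1154 ± 286) above *Gnmt* (1014 ± 157), each pair again with overlapping ranges, and the order was otherwise that of WT livers. The order depends on the length taken. By the transcript with the longest coding part, *Bhmt* had 612 CPM per kilobase and *Aldh1l1* 352 in WT livers, and in LKO livers *Bhmt* (394) stood above *Ahcy* (218) and *Gnmt* (1181) above *Mat1a* (1154), so that the order of the 9 genes was the same in both genotypes.

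**Figure D4:**
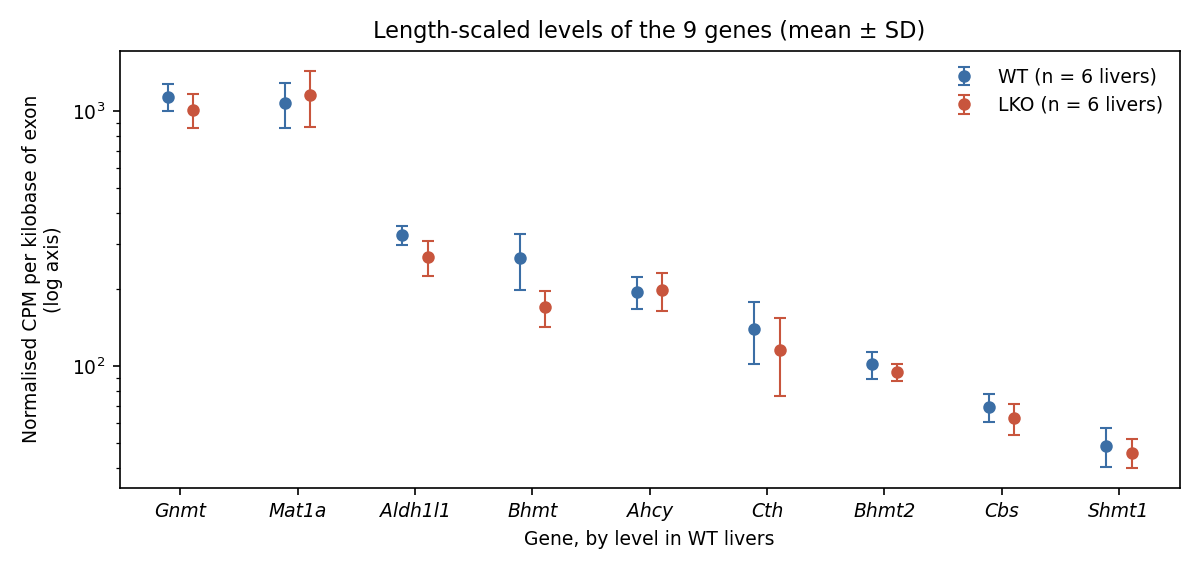
Normalised CPM per kilobase of exon of the 9 genes (vertical log axis), as mean and SD over 6 WT and 6 LKO livers, ordered by the WT mean. *Gnmt* and *Mat1a* stand apart from the other genes, and *Bhmt*, at 265 in WT and 170 in LKO livers, stands below *Ahcy* in LKO livers by this length, which it does not by the transcript with the longest coding part.

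The genes whose log2 CPM followed *Bhmt* most closely over the 12 livers, as deviations from the mean of each genotype, were sought among 7788 genes of at least 10 CPM. They were *Atp6v1h* (Pearson r = 0.95, Spearman rho = 0.96), *Bhmt-ps1* (r = 0.95, rho = 0.98), *Gm5096* (r = 0.94, rho = 0.97), *Agxt2* (r = 0.91, rho = 0.94) and *Got2* (r = 0.89, rho = 0.85). The order is a description that carries no test, since the points share their libraries and the highest of many values were taken, and *Bhmt-ps1* and *Gm5096* are the near-identical copies. Without WT 6 and WT 3, the livers farthest from the median of *Bhmt*, r was 0.83 to 0.92 for these genes. *Atp6v1h*, a subunit of the vacuolar proton pump, had a log2 fold change of -0.15 (edgeR adjusted p = 0.653), *Agxt2*, a mitochondrial aminotransferase, of -0.15 (adjusted p = 0.393), and *Got2*, the mitochondrial aspartate aminotransferase, of -0.04 (adjusted p = 0.849).

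Around the 9 genes, 75 further genes of 8 lists were followed, of which 72 passed the filter. Of these 1 rose and none fell past the test, which is 1.39% where 0.428% of all genes tested passed. An unadjusted p under 0.05 was found in 14 (19.4%, against 11.7% of all genes tested), of which 11 were lower in the knockouts (15.3%, against 5.36%) and 3 higher. The lists were chosen with earlier results of these data known. These shares, and those of the single lists below, are therefore no test of the pathways. The log2 fold changes of the 72 had a median of -0.03. In 2 of the 72, *Gart* and *Sat1*, the ranges of the genotypes did not overlap, as in 228 of the 17509 genes tested (1.3%). *Phgdh*, *Folr1* and *Gadl1* had at most 4 reads in any liver and were not tested.

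The gene that rose was *Inmt*, which methylates tryptamine and related indoles with S-adenosylmethionine. It had 198, 232 and 359 CPM as lowest, median and highest WT level and 321, 408 and 503 CPM in LKO livers. All 6 LKO livers were above the WT mean and 5 of 6 above every WT liver, with WT 3 alone inside the LKO range. The log2 fold change was 0.73 ± 0.14 (SE, n = 6 per group, edgeR adjusted p = 0.0319). The call was lost without any 1 of WT 1, WT 2, WT 4, WT 5, WT 6, LKO 3, LKO 4 or LKO 5, with adjusted p up to 0.0963, while the fold change stayed between 0.66 and 0.86.

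The other methyltransferases for small molecules, 8 with *Inmt*, did not pass. *Tpmt*, which methylates thiopurines, had a median of 43.7 CPM in WT and 36.3 CPM in LKO livers (log2 fold change -0.33, edgeR adjusted p = 0.119, DESeq2 adjusted p = 0.0265). *Gamt*, which makes creatine, had medians of 116 and 95.6 CPM (log2 fold change -0.33, edgeR adjusted p = 0.281). *As3mt*, which methylates arsenic, had medians of 58.1 and 73.6 CPM (log2 fold change 0.32, edgeR adjusted p = 0.211). It passed in 1 of 12 edgeR fits with a liver left out, without WT 3 (adjusted p = 0.0452). With *Inmt*, 6 of the 8 (75%, against 11.7% of all genes tested) had an unadjusted p under 0.05, 2 higher and 4 lower, and the list's median log2 fold change was -0.17.

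In remethylation and the betaine route none of 9 genes passed, and 3 (33.3%) had an unadjusted p under 0.05, all lower, against 5.36% of all genes tested. They were *Dmgdh*, *Sardh* and *Aldh7a1*, of which the first and second carry out the later steps of betaine breakdown and the last makes betaine from its aldehyde. *Sardh* had 680.02, 707 and 809 CPM as lowest, median and highest WT level and 485, 611 and 702 CPM in LKO livers, with 5 of 6 LKO livers below every WT liver (log2 fold change -0.26, edgeR adjusted p = 0.226). *Aldh7a1* had medians of 523 and 468 CPM (log2 fold change -0.17, edgeR adjusted p = 0.363). The methionine synthase route of the same list was close to even, with *Mtr* at a log2 fold change of 0.06 (edgeR adjusted p = 0.815), and *Mtr* and *Chdh*, which begins the conversion of choline to betaine (-0.05, adjusted p = 0.832), were named after their values were seen. The median of the list was -0.05.

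Folate interconversion had none of 17 genes past the test, and 2 (11.8%) had an unadjusted p under 0.05, both lower, against 11.7% of all genes tested in either direction and 5.36% lower. The median log2 fold change of the list was -0.10. *Shmt2*, the mitochondrial counterpart of *Shmt1*, had medians of 215 and 187 CPM (log2 fold change -0.20, edgeR adjusted p = 0.294). *Gart*, which uses formylfolate in purine synthesis, had 25.4 to 27.7 CPM in WT and 21.8 to 25.2 CPM in LKO livers, ranges that did not overlap (log2 fold change -0.15, edgeR adjusted p = 0.306). *Amdhd1*, of histidine breakdown to folate-bound formimino groups, had medians of 215 and 198 CPM (log2 fold change -0.22, edgeR adjusted p = 0.507, and -0.13 without LKO 1). Of 4 folate transport genes tested none passed and none had an unadjusted p under 0.05, with log2 fold changes of -0.11 for *Slc25a32*, which carries folate into mitochondria, -0.03 for *Slc46a1* and 0.01 for *Slc19a1*, both carriers of the plasma membrane.

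Serine and glycine supply had none of 9 genes past the test and a median log2 fold change of 0.02, and 2 (22.2%) were lower at an unadjusted p under 0.05, against 5.36% of all genes tested. These were subunits of the glycine cleavage system, *Gldc* with medians of 213 and 176 CPM (log2 fold change -0.27, edgeR adjusted p = 0.222) and *Amt* with 57.9 and 47.5 CPM (log2 fold change -0.22, edgeR adjusted p = 0.388). *Gatm*, the step of creatine synthesis ahead of *Gamt*, had a log2 fold change of 0.20 (edgeR adjusted p = 0.626). The list named for S-adenosylmethionine synthesis and homocysteine release held 5 further genes, not all of which encode enzymes of these steps. None passed and none had an unadjusted p under 0.05. On the log2 scale *Ahcyl2* was at -0.28, *Adk*, the kinase that clears adenosine, at -0.11 and *Ahcyl1* at -0.08.

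The products of transsulfuration were represented by 10 tested genes of glutathione, taurine and sulfide metabolism, of which none passed and none had an unadjusted p under 0.05. *Csad*, which decarboxylates cysteine sulfinate on the way to taurine, had the lowest p, with 100.5, 139 and 294 CPM as lowest, median and highest WT level and 177, 235 and 295 CPM in LKO livers (log2 fold change 0.48, edgeR adjusted p = 0.449). *Gclm*, a subunit of the first glutathione enzyme, had -0.13 and *Cdo1*, which oxidises cysteine, 0.13 on the log2 scale. Of 10 genes of methionine salvage and polyamines none passed. *Sat1*, which acetylates polyamines for export, had 33.3 to 40.5 CPM in WT and 41.9 to 69.7 CPM in LKO livers, with no overlap (log2 fold change 0.37, edgeR adjusted p = 0.211), and 0.23 without LKO 1, its highest liver. *Mtap*, which starts salvage of methionine from methylthioadenosine, had -0.15 and *Amd1*, which supplies the aminopropyl donor for polyamines, -0.19.

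**Figure D5:**
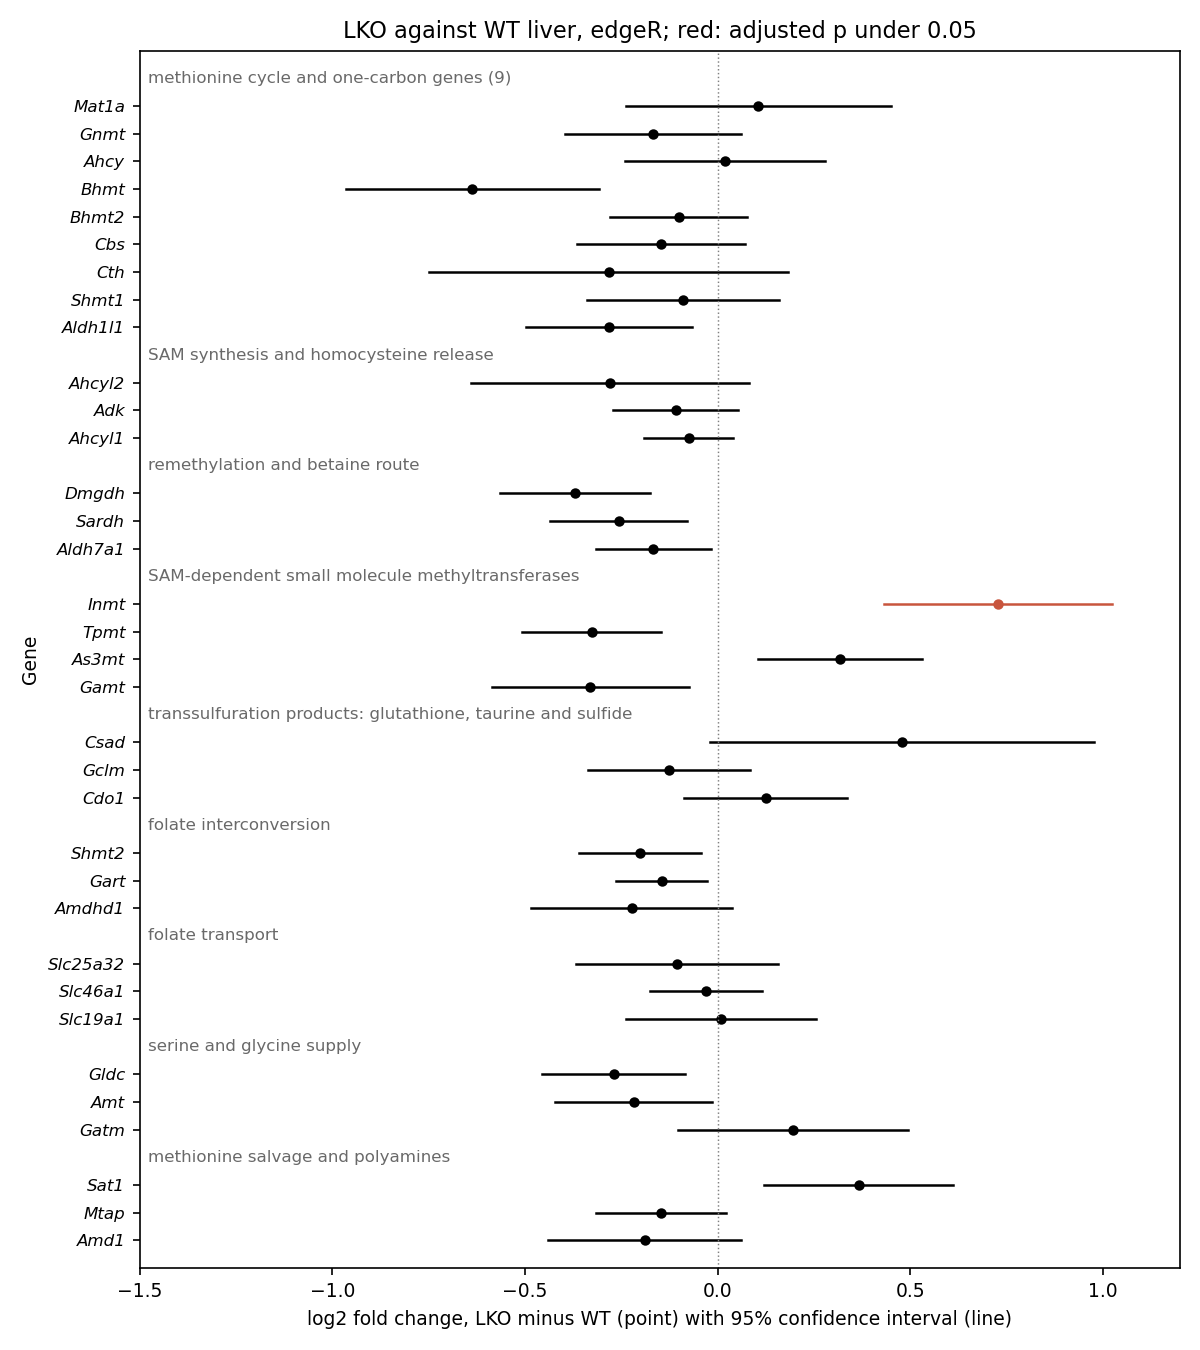
Log2 fold change of LKO over WT livers (horizontal axis) with its 95% confidence interval from edgeR, for the 9 genes and for the genes named from each of 8 lists, n = 6 livers per group. *Inmt*, in red at 0.73, is the gene with an adjusted p under 0.05, and intervals that leave 0 in black did not pass after adjustment over all genes.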

How the data were processed

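Liver mRNA of 6 WT and 6 *Marchf6* LKO mice was sequenced by the authors, 1 library per mouse (KAPA mRNA HyperPrep, HiSeq4000). Reads were checked with FastQC 0.11.15 and Picard, trimmed with Trimmomatic 0.36, aligned with HISAT2 2.1.0 to GRCm38.p6 (Ensembl 93) and counted with HTSeq 0.6.1. What was deposited are whole-number read counts for each Ensembl gene, neither scaled nor filtered by the authors, and the strand setting of the counting is not given in the sources used here. Symbols, coordinates and exon lengths came from GENCODE M21 (GRCm38), which matched 54165 of 54232 identifiers. Promoter sequences came from RefSeq (GRCm38.p6).

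A gene was tested where 6 or more livers held over 2 reads. Counts were scaled by TMM and tested two-sided with edgeR 4.0.16 in R 4.3.3, in a model of genotype without covariates, and p were adjusted by the Benjamini-Hochberg method across 17509 genes. Standard errors follow from each fold change and its F value. Normalised CPM are counts per 1000000 reads after TMM, and log2 CPM used a prior count of 0.5. Ratios were compared with an exact permutation test. The study's own test, limma 3.58.1 (voom), and DESeq2 1.42.0 were alternatives. Total counts of 14860414 to 22111926 set the counting error, which is small for genes with this many reads, so the spread between mice limited precision. No 2 livers of the same genotype were alike to within counting error. The tests were checked on simulated data.

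The 9 genes, the lists, the motifs and the marker genes were chosen with earlier results of these data known. The text names the 9 genes, *Marchf6*, in each list the genes past the test or else those with the 3 lowest p (at least 1 CPM), and the 5 genes most alike to *Bhmt*. Alternatives were RLE scaling, library sizes without the 20 most abundant genes, no filter, a filter of 10 counts in each liver, voom, DESeq2, a replicate block and each liver left out. Leaving out WT 3 with LKO 1, adding the reads of near-identical copies and the transcript length were chosen after seeing the data.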

Additional observations from a re-analysis of the deposited data

Results flagged for a closer look

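Each of the 9 genes, the genes named from the lists and the 3 ratios was searched in both groups of 6 livers for a highest or lowest liver whose gap to its neighbour, as a share of the range of the group, passed Dixon's 95% limit. Of 74 groups 8 had such a liver, where chance gives about 1 in 20, or 3.7. The groups come from the same livers and are not independent, so these counts are no test of an excess. Among the 9 genes this was *Mat1a*, in which WT 3 was highest with a gap of 0.669 of the range. WT 3 was also highest, with gaps of 0.703 in *Ahcyl1*, 0.657 in *Inmt* and 0.636 in *Slc25a32*. LKO 1 was highest in *Sat1* with 0.893 and lowest in *Amd1* with 0.683. LKO 4 was highest in *Dmgdh* with 0.6503, and WT 5 in *Sardh* with 0.716.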

How the results depend on the processing

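None of the 9 genes passed an adjusted p of 0.05 under any alternative in edgeR or voom, and DESeq2 called 1, *Bhmt*. Of 207 alternative values of the 9 genes, 194 kept their sign and side of the threshold, 5 passed it (*Bhmt* in DESeq2, and *Bhmt* and *Aldh1l1* in unadjusted exact permutation tests with and without TMM) and 8 turned in sign. DESeq2 called 351 genes in all and 3 pathway genes (*Inmt*, *Dmgdh* and *Tpmt*), against 75 and 1 in edgeR, and 114 genes passed without a filter. Leaving out each liver gave 38 (without WT 5) to 132 (without WT 3) genes and 0 to 2 pathway genes, and leaving out both WT 3 and LKO 1 gave 113 genes and 2 pathway genes (*Inmt* and *As3mt*). The *Gnmt* to *Mat1a* ratio ran from -0.36 to -0.19 with each liver left out, with an exact permutation p of 0.0455 without LKO 3. Signs turned with a liver left out in *Mat1a* (-0.0024 to 0.22), *Ahcy* (-0.040 to 0.10), *Slc25a32* (-0.17 to 0.032), *Slc46a1* (-0.062 to 0.0013) and *Slc19a1* (-0.053 to 0.071). Values of other named genes moved by over 1.5 times in *Ahcyl2* (-0.17 without WT 1), *Adk* (-0.065 without LKO 1), *Ahcyl1* (-0.046 without WT 3), *Gclm* (-0.072 without LKO 1), *Cdo1* (0.077 without WT 5), *Gatm* (0.12 without LKO 3) and *Amd1* (-0.12 without WT 5). Without both WT 3 and LKO 1, the sign turned in *Shmt1* (0.048) and *Slc25a32* (0.057). The same setting moved *Mat1a* to 0.30, *Ahcy* to 0.15, *Gnmt* to -0.054, *Bhmt2* to -0.028 and *Cth* to -0.17. The cause was not tested.

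Replicate numbers are shared by the groups but belong to different mice, and the deviations of same-numbered livers correlated weakly (-0.06 to 0.14, over 0.1 in 4 of 6 numbers, and 2 of 6 WT livers were most like their own number), which was not taken as a pairing. With a replicate block edgeR called 97 genes, of which 60 were among the 75, none of the 9 and again *Inmt*. The *Bhmt2* to *Bhmt* ratio differed by 0.52 with the block as well (exact sign-flip p = 0.0312). That is the smallest p this test can give with 6 numbers.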
